A study of Mus musculus with 4 samples.

Results

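The 10 genes described here are cell cycle inhibitors, members of the p53 axis and chromatin proteins linked to senescence: Cdkn1a, Cdkn2a, Cdkn2b, Cdkn2c, Trp53, Mdm2, Gadd45a, Gadd45b, Hmga1 and Hmga2. They were taken by symbol from a table of 16383 genes, and all 10 were present and passed the filter on low counts. Their expression was measured by RNA-seq in wild-type primary cardiac fibroblasts of 3-month-old mice, to which the cardiac reprogramming cocktail MGT (Mef2c, Gata4, Tbx5) was delivered, and collected at reprogramming day 7. Both groups carried the factors: shNT (2 libraries) had in addition a non-targeting hairpin, and shNr4a3 (2 libraries) a hairpin against the orphan nuclear receptor gene Nr4a3. The study asked how knockdown of Nr4a3 acts, at the molecular level, to enhance reprogramming, and its title names senescence as a barrier. The sources used here do not give the promoter that drives the hairpins or the number of animals behind a library. The p-values below thus reflect only how far these libraries differ, and that spread may be technical.

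Senescence is a lasting arrest of the cell cycle. The INK4 proteins, which include products of Cdkn2a, Cdkn2b and Cdkn2c, block the kinases Cdk4 and Cdk6. The protein p21, encoded by Cdkn1a, inhibits cyclin-dependent kinases more broadly. The transcription factor p53 (Trp53) induces Cdkn1a, Gadd45a and also Mdm2, the ubiquitin ligase that degrades p53. The AT-hook proteins Hmga1 and Hmga2 shape chromatin in dividing and embryonic cells, and in senescent human fibroblasts they are part of the condensed chromatin foci.

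The promoter windows of 5 transcripts are shown. The counts below are sums per gene, and where a gene has more than 1 start site, as Cdkn1a and Cdkn2a do, its windows differ in their sequence. Each window runs from 250 bases before to 50 bases after a transcript start (RefSeq, GRCm38.p6), and all 10 genes matched, with 14 windows. Letters in capitals mark matches, on either strand, to the E2F motif (TTTCCCGC or TTTGGCGC), the cyclic AMP response element CRE (TGACGTCA), the CCAAT box, the TATA box (TATAAA), and the p53 response element.
Cdkn1a, upstream start, chr17:29090729-29091028, plus strand: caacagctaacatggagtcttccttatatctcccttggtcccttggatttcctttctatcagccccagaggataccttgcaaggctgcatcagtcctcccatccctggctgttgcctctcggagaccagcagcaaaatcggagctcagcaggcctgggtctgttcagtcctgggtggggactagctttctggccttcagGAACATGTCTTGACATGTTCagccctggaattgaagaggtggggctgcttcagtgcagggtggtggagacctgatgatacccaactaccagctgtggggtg
Cdkn2a, upstream start (ARF), chr4:89294570-89294869, minus strand: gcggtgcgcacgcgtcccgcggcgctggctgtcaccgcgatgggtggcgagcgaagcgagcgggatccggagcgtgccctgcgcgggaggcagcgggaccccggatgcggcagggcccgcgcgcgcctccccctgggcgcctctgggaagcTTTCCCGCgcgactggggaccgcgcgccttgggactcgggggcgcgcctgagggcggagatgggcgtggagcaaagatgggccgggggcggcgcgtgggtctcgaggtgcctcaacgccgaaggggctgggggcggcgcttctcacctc
Cdkn2a, downstream start (INK4a), chr4:89282143-89282442, minus strand: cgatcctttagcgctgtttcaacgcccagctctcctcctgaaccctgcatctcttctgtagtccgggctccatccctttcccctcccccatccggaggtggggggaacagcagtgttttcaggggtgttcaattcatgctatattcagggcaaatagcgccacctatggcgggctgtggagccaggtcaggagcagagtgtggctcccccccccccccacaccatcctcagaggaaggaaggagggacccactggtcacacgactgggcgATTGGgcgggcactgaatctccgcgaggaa
Cdkn2b, chr4:89310983-89311282, minus strand: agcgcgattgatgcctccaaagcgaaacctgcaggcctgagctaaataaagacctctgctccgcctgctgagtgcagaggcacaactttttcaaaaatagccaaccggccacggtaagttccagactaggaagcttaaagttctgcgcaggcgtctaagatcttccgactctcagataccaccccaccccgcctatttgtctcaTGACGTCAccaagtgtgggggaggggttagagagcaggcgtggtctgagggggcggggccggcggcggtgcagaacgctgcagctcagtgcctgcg
Gadd45b, chr10:80929841-80930140, plus strand: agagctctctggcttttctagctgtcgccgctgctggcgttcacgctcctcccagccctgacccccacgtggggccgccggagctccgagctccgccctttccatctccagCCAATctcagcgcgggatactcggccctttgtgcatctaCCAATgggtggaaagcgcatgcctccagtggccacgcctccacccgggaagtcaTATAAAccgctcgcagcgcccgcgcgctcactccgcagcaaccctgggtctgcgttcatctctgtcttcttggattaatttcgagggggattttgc
The upstream Cdkn1a window held a p53 response element from position -51 to -32, counted from the transcript start. The element was searched as a pair of adjoining half-sites with at most 1 mismatch outside their cores, and 0.0548% of the 32817 promoter windows of the same length held one. Cdkn1a was the only one of the 10 genes with this match in its windows. The window of its downstream start (chr17:29093519-29093818), not shown, did not hold the element. Elements outside the windows, or with a spacer between the half-sites, were not searched. Half-sites alone, not marked above, were in 4 of the 14 windows (Cdkn1a, Trp53, Mdm2 and Gadd45a) and in 8.36% of all windows. The Cdkn2b window held a CRE, as did 1.79% of all windows, and the ARF window of Cdkn2a held an E2F motif, as did 1.56%. CCAAT was found in 6 of the 14 windows of these genes, and in 37.4% of all windows. The NBRE (AAAGGTCA), the motif bound by Nr4a receptors, was in none of the 14 windows and in 1.51% of all windows. A match is a run of letters and does not show that a factor binds.

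Between 28220440 and 30976450 counts per library fell on the listed genes, which come from 16 chromosomes (from chromosome 6 only in part). Nr4a3 had 356 and 353 counts in shNT and 18 and 32 in shNr4a3 (log2 fold change -3.86 with an SE of 0.27, edgeR adjusted p = 2.65e-06), so the target was lower in both knockdown libraries. Counts of the genes of the 3 factors were also lower, with log2 fold changes of -0.58 for Mef2c, -0.39 for Gata4 and -0.39 for Tbx5. Such a sum per gene does not tell delivered from endogenous transcripts. Fibroblast markers were abundant in every library, but 7 of 10 were lower under shNr4a3 and 1 was higher, with summed levels of 11321 and 11362 CPM in shNT against 7440 and 8087. Pdgfra, a defining fibroblast receptor gene, went from 355 and 321 CPM to 66.7 and 74.9 CPM. Its log2 fold change of -2.26 was well beyond the list's median of -0.59. Ddr2 and Col3a1 did not pass (0.005 and 0.015), and the higher gene was Lum (0.83). Macrophage markers summed to 204 and 260 CPM in shNT and 169 and 174 in shNr4a3 (7 of 13 lower, 0 higher). Most of those sums was Lyz2, which did not pass, and without it they were 70.0 and 91.0 CPM against 36.3 and 36.7. For mural cells, 3 of 3 markers were higher (56.3 and 60.2 CPM against 141 and 158). Endothelial marker sums overlapped between the groups (109 and 125 CPM against 106 and 112; 2 of 7 higher, 2 lower), but without Tek they were 48.2 and 55.8 CPM against 67.7 and 77.1. Mesothelial sums were 59.5 and 76.8 CPM against 46.9 and 48.8 (2 of 5 higher, 1 lower), and the lower gene was Msln (24.4 and 35.2 CPM against 4.17 and 4.97). Of the cardiomyocyte markers 4 of 7 were higher and 1 lower, with sums of 13196 and 15417 CPM in shNT against 7377 and 8469. Nearly all of those sums was Tnnt2 (13105 and 15314 CPM against 7121 and 8238), and without it the other 6 summed to 90.4 and 104 CPM in shNT against 231 and 256, with Nppa and Actc1 higher by log2 fold changes of 4.80 and 3.71. The lymphocyte gene Ms4a1 had 0 counts throughout. The part of these marker shifts in the results below was not tested. In bulk RNA, fewer cells of a type and less RNA per cell cannot be told apart.

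Of the 10 genes, 5 were higher under shNr4a3 (Gadd45b, Cdkn2b, Gadd45a, Mdm2 and Cdkn1a), 4 were lower (Hmga1, Hmga2, Cdkn2c and Trp53), and Cdkn2a did not pass the test. A gene was called at an edgeR adjusted p under 0.05, and across all 10736 genes tested 60.2% were called, 30.7% higher and 29.4% lower. That 9 of 10 genes were called is therefore to be read against a table in which most genes were. With a log2 fold change over 1 in size asked for as well, 4 of the 10 were called (Gadd45b higher, and Hmga1, Hmga2 and Cdkn2c lower), against 26.3% of all genes tested. The median size of the log2 fold change was 0.81 among the 10 genes and 0.56 among all genes tested. Groups were fully separated in CPM for 9 of the 10 genes, and for 81% of all genes tested.

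**Figure D1:**
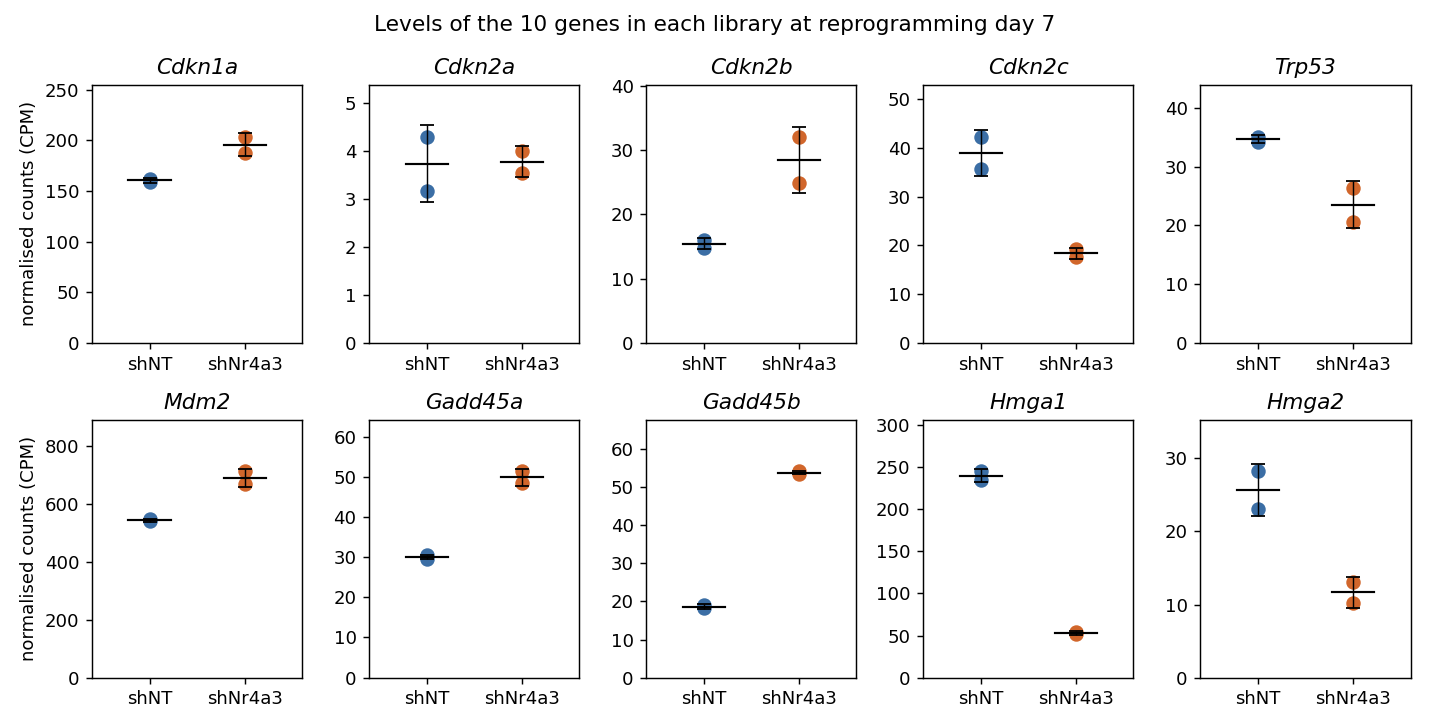
Normalised counts (CPM, linear axis from 0, scaled separately per panel) of the 10 genes in the 2 shNT libraries (blue) and the 2 shNr4a3 libraries (orange), with each group's mean and SD. The groups stand apart in 9 panels and overlap in the panel of Cdkn2a, where all 4 libraries lie between 3.17 and 4.31 CPM.

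Among the 3 INK4 inhibitor genes, 1 rose, 1 fell and 1 did not pass the test. Cdkn2a, which encodes p16INK4a and, in another reading frame, p19ARF, had 4.31 and 3.17 CPM in shNT and 4.01 and 3.55 CPM in shNr4a3. The shNr4a3 libraries lay between the shNT libraries. The log2 fold change was 0.02 (95% interval -0.58 to 0.61, edgeR adjusted p = 0.962), so a change of up to about that size in either direction was not detectable at 97 to 123 counts per library. Cdkn2a occupies bases 89274471 to 89294653 of chromosome 4 (mm10, minus strand), and its transcripts for p16INK4a and p19ARF share exons, so a sum per gene cannot tell them apart. The value lay so near 0 that its sign was not stable: it was -0.19 without shNT replicate 2, -0.07 without shNr4a3 replicate 1 and -0.00604 with library totals alone.

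Cdkn2b, which encodes p15INK4b, a TGF-beta-inducible inhibitor of Cdk4 and Cdk6, rose. It lies next to Cdkn2a at 89306299 to 89311039 on the same strand. It had 14.8 and 16.1 CPM in shNT and 32.1 and 24.9 CPM in shNr4a3, a log2 fold change of 0.88 with an SE of 0.14 and an edgeR adjusted p = 5.64e-04. Both knockdown libraries were above both controls, although they differed from each other by more than the controls did. Per length, in TPM (length-scaled counts, set to a fixed total over the listed genes), Cdkn2b was 2.89 and 4.27 times as abundant as Cdkn2a in shNT, and 6.74 and 5.90 times in shNr4a3. Mtap, a gene on the other side of Cdkn2a, had a log2 fold change of -0.20 and did not pass (edgeR adjusted p = 0.0544).

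Cdkn2c, which encodes p18INK4c, fell. Its levels were 35.6 and 42.4 CPM in shNT and 19.2 and 17.7 CPM in shNr4a3 (log2 fold change -1.08 with an SE of 0.12, edgeR adjusted p = 5.48e-05). The higher shNr4a3 library was well below the lower shNT library. The gene lies on chromosome 4 at 109660876 to 109667189, apart from the Cdkn2a and Cdkn2b pair.

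Cdkn1a, which encodes p21 and spans bases 29090976 to 29100727 of chromosome 17 (plus strand), was slightly higher under shNr4a3. Its levels were 159 and 162 CPM in shNT and 204 and 188 CPM in shNr4a3, 1.22-fold (log2 fold change 0.29, 95% interval 0.11 to 0.46, edgeR adjusted p = 0.0114). The groups did not overlap, but 71.6% of genes tested changed by more in size. Leaving out shNT replicate 1 ended this call (0.25, edgeR adjusted p = 0.148), as did leaving out shNT replicate 2 (0.30, edgeR adjusted p = 0.0862).

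The p53 gene itself and its ligase moved in opposite directions. Trp53 had 34.2 and 35.1 CPM in shNT and 26.3 and 20.6 CPM in shNr4a3 (log2 fold change -0.56 with an SE of 0.13, edgeR adjusted p = 0.00424). The controls were close together, and the knockdown libraries were spread more widely below them. Mdm2 had 546 and 539.7 CPM in shNT and 712 and 668 CPM in shNr4a3 (log2 fold change 0.35 with an SE of 0.07, edgeR adjusted p = 0.00316). As for Cdkn1a, the Mdm2 call ended when shNT replicate 1 was left out (0.34, edgeR adjusted p = 0.059), and likewise for shNT replicate 2 (0.34, edgeR adjusted p = 0.0559). Per length, Mdm2 stood at 12.7 and 12.3 times the TPM of Trp53 in shNT, and at 21.6 and 25.8 times in shNr4a3. Trp53 spans 69580359 to 69591873 on chromosome 11 (plus strand), and Mdm2 spans 117688875 to 117710758 on chromosome 10 (minus strand). These are transcript levels, and p53 is controlled largely at the protein level.

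Both Gadd45 genes rose. They encode small stress-response proteins that bind the kinase Map3k4 and so activate the p38 and JNK kinases. Gadd45a spans 67035096 to 67037457 on chromosome 6 (minus strand), and Gadd45b spans 80930073 to 80932204 on chromosome 10 (plus strand). Gadd45a, a p53 target, had 29.6 and 30.4 CPM in shNT and 51.4 and 48.4 CPM in shNr4a3 (log2 fold change 0.73 with an SE of 0.10, edgeR adjusted p = 1.48e-04). Gadd45b, induced by TGF-beta and NF-kB signalling, rose more, from 18.1 and 19.1 CPM to 53.4 and 54.1 CPM (log2 fold change 1.53 with an SE of 0.10, edgeR adjusted p = 1.76e-06). In shNT the Gadd45a libraries lay above the Gadd45b libraries per length (64.2 and 65.9 TPM against 54.8 and 57.8), and in shNr4a3 below them (109 and 107 TPM against 158 and 166). The third paralogue, Gadd45g, was more abundant than either per length (1639 and 1856 TPM in shNT) and did not pass (502 and 569 CPM against 502 and 405, log2 fold change -0.24, edgeR adjusted p = 0.0884).

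Both Hmga genes fell, and Hmga1 showed the largest change of the 10. Its levels were 245 and 234 CPM in shNT and 54.3 and 51.3 CPM in shNr4a3, 4.54-fold lower (log2 fold change -2.18 with an SE of 0.08, edgeR adjusted p = 9.89e-08). The libraries of each group were close together, and 92.5% of genes tested changed by less in size. Hmga1 lies on chromosome 17 at 27556497 to 27563674 (plus strand), and its 3′ end overlaps AI413582 on the opposite strand. AI413582 did not pass (299 and 316 counts in shNT, 308 and 210 in shNr4a3), and its counts came to 4.28% and 4.41% of those of Hmga1 in shNT and to 18.8% and 13.3% in shNr4a3.

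Hmga2, a let-7 target with its peak in embryonic tissue, spans 120361275 to 120476469 on chromosome 10 (minus strand). It had 23.1 and 28.2 CPM in shNT and 13.1 and 10.2 CPM in shNr4a3 (log2 fold change -1.14 with an SE of 0.16, edgeR adjusted p = 2.18e-04). Both knockdown libraries were below both controls. Per length, Hmga1 was 36.1 and 28.2 times as abundant as Hmga2 in shNT and 14.1 and 17.1 times in shNr4a3.

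**Figure D2:**
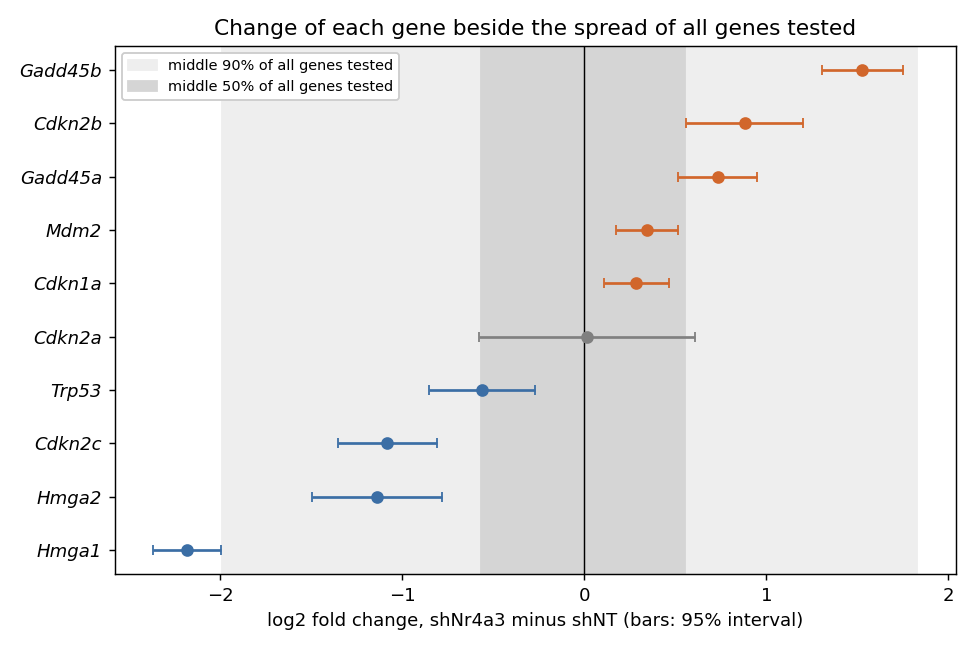
Log2 fold change of each gene (shNr4a3 minus shNT, with its 95% interval from the edgeR fit), in orange where called higher, blue where called lower and grey where not called. The grey bands hold the middle 50% and 90% of all genes tested, and Hmga1 at -2.18 lies beyond the wider band, whose lower edge is at -1.99.

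Per length, the order of the 10 genes differed between the hairpins. In shNT the order was Hmga1 (461 ± 14.9 TPM, mean ± SD, n = 2), Mdm2 (409.6 ± 3.81), Cdkn1a (276 ± 3.90), Gadd45a (65.1 ± 1.23), Gadd45b (56.3 ± 2.09), Cdkn2c (55.5 ± 6.72), Cdkn2b (42.4 ± 2.46), Trp53 (32.8 ± 0.568), Hmga2 (14.5 ± 2.03) and Cdkn2a (12.2 ± 2.63). The neighbours Gadd45b and Cdkn2c, and Hmga2 and Cdkn2a, overlapped in their libraries. In shNr4a3, Mdm2 was first (519 ± 8.94 TPM) and Cdkn1a second (336 ± 9.99), while Hmga1 took the fifth place (101 ± 1.19) behind Gadd45b (162 ± 6.01) and Gadd45a (108 ± 1.496). Cdkn2b followed at 77.8 ± 11.8 TPM, then Cdkn2c (26.1 ± 0.824), Trp53 (22.1 ± 3.14), Cdkn2a (12.3 ± 0.705) and Hmga2 (6.55 ± 0.978), with no overlap between neighbours.

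**Figure D3:**
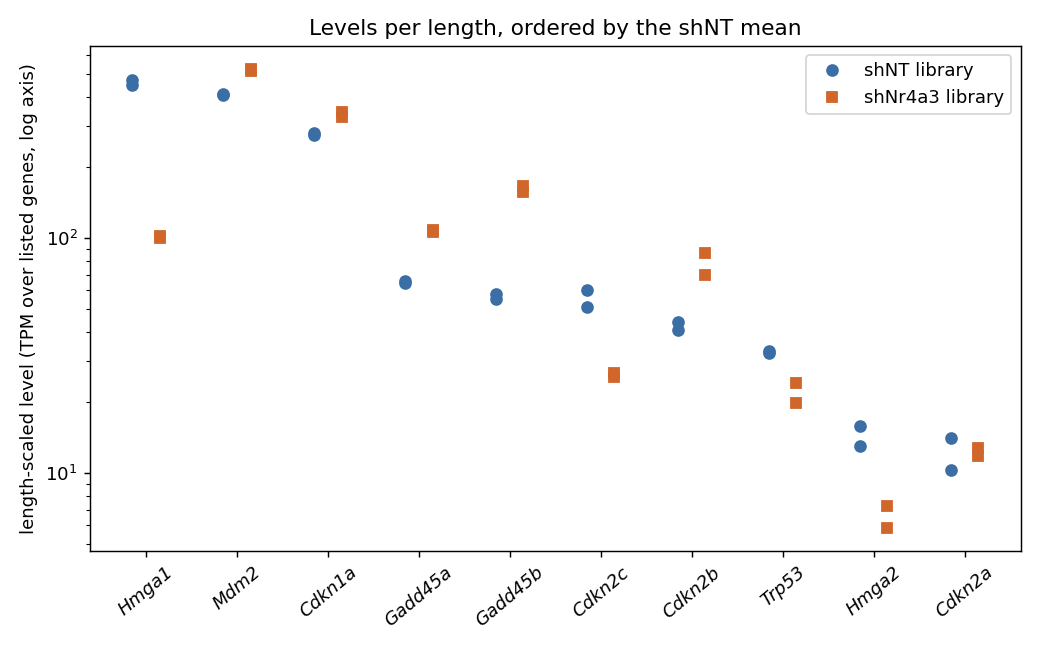
Length-scaled level (TPM over the listed genes, log axis) of the 10 genes in each library, ordered by the shNT mean, with shNT as blue circles and shNr4a3 as orange squares. Hmga1 goes from first (461 TPM) to the fifth place (101 TPM), and Mdm2, at 409.6 and 519 TPM, is first under shNr4a3.

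Genes of the G1 and S phase machinery, which holds the kinases these inhibitors act on, were more often lower than higher, but most E2F genes were higher. Of 15 G1 and S phase cyclins, kinases and E2F factors tested, 9 were lower, 5 higher and 1 not called (93.3% called, beside 60.2% over all genes), with a median log2 fold change of -0.64 against 0.02 for all genes tested. The directions differed by kind of gene. The cyclin and kinase genes tested were all lower except Ccnd3, and Pcna was lower as well. Of the E2F genes, E2f2, E2f3, E2f5 and E2f6 were higher, the last 3 by 0.26, 1.41 and 0.89. E2f7 was lower (log2 fold change -0.38, edgeR adjusted p = 0.0497), and E2f1 was not called. The list named 21 genes, and those not in the deposited counts include the D-type cyclin genes Ccnd1 and Ccnd2. Cdk6, a kinase partner of the D-type cyclins, fell from 56.8 and 66.1 CPM to 15.5 and 18.9 CPM (log2 fold change -1.83 with an SE of 0.13, edgeR adjusted p = 3.14e-06). Cdk4, its close relative, fell by 0.64 on the log2 scale, and per length stood at 5.75 and 4.78 times Cdk6 in shNT and at 13.9 and 10.4 times in shNr4a3. The list also holds 2 genes of mitosis that count among the 9 lower, Cdk1 and the cyclin gene Ccnb1, which fell by 0.91 and 2.74. Ccnd3, a D-type cyclin that activates Cdk4 and Cdk6, rose from 22.2 and 26.2 CPM to 109 and 94.1 CPM (log2 fold change 2.07 with an SE of 0.12, edgeR adjusted p = 8.33e-07), and it overlaps Bysl on the opposite strand, which did not pass. E2f2 had 0 and 2 counts in shNT and 25 and 20 in shNr4a3, a ratio of 21.8 (exact 95% interval 5.71 to 186, counting error only). E2f2, which counts among the 5 higher, passed the filter through the knockdown libraries alone.

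Of 9 genes sought in a list of other inhibitors and pocket proteins, 4 were in the deposited counts: Cdkn3, Cdkn2aipnl, Rb1 and Rbl1. Cdkn2aipnl is neither an inhibitor nor a pocket protein. The inhibitor genes Cdkn1b, Cdkn1c and Cdkn2d were not in the counts, so whether they changed is not known here. Cdkn3 had only 15 and 22 counts in shNT and 37 and 31 in shNr4a3 (95% interval of the log2 fold change -0.29 to 1.97). None of the 4 tested passed, among them Rb1, the retinoblastoma protein gene that these kinases inactivate (34.8 and 40.6 CPM against 32.4 and 34.5, log2 fold change -0.17, edgeR adjusted p = 0.198). The count at an unadjusted p under 0.05 was also 0, and the 4 genes had a median log2 fold change of -0.07. Of 19 genes of the p53 family and its regulators tested, 4 were higher, 7 lower and 8 not called (median -0.10), and their called share of 57.9% was close to the 60.2% over all genes. When shNT replicate 1 or shNT replicate 2 was left out, 2 were higher. Mdm4, the Mdm2 relative that binds and restrains p53, fell from 109 CPM in both shNT libraries to 35.9 and 41.4 CPM (log2 fold change -1.49 with an SE of 0.10, edgeR adjusted p = 1.75e-06). Per length, Mdm2 was 14.7 and 14.5 times as abundant as Mdm4 in shNT and 57.9 and 47.1 times in shNr4a3. Daxx, a histone chaperone that binds Mdm2, fell by 1.08, the kinase gene Hipk2, whose product phosphorylates p53, rose by 1.06 and the acetyltransferase gene Kat5 by 0.50. The Hipk2 libraries were uneven (27.2 and 30.1 CPM against 42 and 77.8). Kat5 overlaps Rnaseh2c on the opposite strand and lost its call when shNT replicate 2 was left out (0.40, edgeR adjusted p = 0.0586). Trp73, a p53 paralogue, was removed by the filter: shNT gave 7 and 13 counts, and both knockdown libraries gave 0. With a floor of 3 counts set for the knockdown group, it was 6.87-fold lower. That value takes the 20 shNT counts as exact, so it is not a lower bound.

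Other p53 targets went both ways, more often up. Of 42 sought, 30 were in the deposited counts, and those that were not include Bax, Bbc3 and Gdf15. Of the 30 tested, 14 were higher, 6 lower and 10 not called (median log2 fold change 0.26), a called share of 66.7% beside 60.2% over all genes. Plk2, a polo-like kinase gene induced by stress, rose from 220 and 240 CPM to 614 and 592 CPM (log2 fold change 1.39 with an SE of 0.08, edgeR adjusted p = 8.85e-07), and Ak1, an adenylate kinase gene, rose by 1.28. Psrc1, a microtubule-associated gene, fell from 69.1 and 70.9 CPM to 26.6 and 30.4 CPM (log2 fold change -1.30), and Pltp, a phospholipid transfer protein gene that overlaps Ctsa on the opposite strand, fell by 1.04. Ctsa was also lower, by 0.51 on the log2 scale. Ccng1, the cyclin G1 gene and a classical p53 target, rose from 761 and 771 CPM to 1042 and 1002 CPM, a log2 fold change of 0.42.

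A list of the third Gadd45 paralogue, kinases of the p38 and JNK pathways and the stress genes Ddit3 and Ddit4 also split. Of its 11 genes tested, 3 were higher, 4 lower and 4 not called (median -0.24, 63.6% called). Map2k4, a kinase upstream of JNK, rose from 25.6 and 25.2 CPM to 88.1 and 84.9 CPM (log2 fold change 1.77 with an SE of 0.09, edgeR adjusted p = 4.26e-07). Ddit4, an inhibitor of mTOR complex signalling, rose by 0.92. Mapk11, the p38-beta kinase gene, fell from 8.65 and 10.3 CPM to 1.39 and 0.586 CPM (log2 fold change -3.26 with an SE of 0.34, edgeR adjusted p = 3.48e-05), and Mapk9, which encodes a JNK kinase, by 0.63.

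Among the other high mobility group genes no single direction was seen. Of 8 such genes and let-7 axis genes tested, 3 were higher, 2 lower and 3 not called (median 0.03, 62.5% called). The number lower was 1 with DESeq2, without shNT replicate 2 and without shNr4a3 replicate 2, and 4 without shNr4a3 replicate 1. The let-7 inhibitors Lin28a and Lin28b had 0 counts in every library. The RNA-binding protein gene Igf2bp1 rose from 3.36 and 3.80 CPM to 9.54 and 11.2 CPM (log2 fold change 1.53), while its paralogue Igf2bp3 fell from 25.4 and 25.3 CPM to 13.8 and 13.7 CPM (log2 fold change -0.88). Igf2bp3 overlaps Malsu1 on the opposite strand, which did not pass. Hmg20b, a chromatin protein gene, rose by 0.45, and the nucleosome-binding protein gene Hmgn2 fell by 0.29. Hmgn2 lost its call with DESeq2 (adjusted p = 0.0521), without shNT replicate 2 (0.319) and without shNr4a3 replicate 2 (0.051).

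Of 19 regulators of the Cdkn2a and Cdkn2b locus tested, 7 were higher, 8 lower and 4 not called (median 0.08), a called share of 78.9% beside 60.2% over all genes. Leaving out shNT replicate 1 brought the 8 lower to 5. Id3 and Id1, inhibitors of basic helix-loop-helix factors, fell from 86.7 and 84.5 CPM to 23.0 and 21.8 CPM and from 18.7 and 16.6 CPM to 6.09 and 4.53 CPM (log2 fold changes -1.93 and -1.73). Kdm6b, the demethylase of the Polycomb mark on histone H3, rose from 44.1 and 50.7 CPM to 110.1 and 126 CPM (log2 fold change 1.32 with an SE of 0.11, edgeR adjusted p = 6.42e-06), and Tbx3, a T-box repressor, rose by 1.46 at low levels (1.58 and 1.31 CPM against 3.78 and 4.17). Among the Polycomb genes, Bmi1 rose by 0.54, Cbx7 fell by 1.26 and Ezh2 had a log2 fold change of -0.01 (edgeR adjusted p = 0.932). Of 7 genes of the nuclear lamina, heterochromatin and lysosome, 2 were higher and 2 lower (median -0.03, 57.1% called), and 1 was higher without shNT replicate 1 or without shNT replicate 2. Lmnb1, the lamin B1 gene, whose loss is a senescence marker, rose from 145 and 143 CPM to 187 and 168 CPM (log2 fold change 0.30, edgeR adjusted p = 0.0106), a call that was lost without shNT replicate 1 (0.0949) and without shNT replicate 2 (0.104). Lmna rose by 0.47, and the heterochromatin protein genes Cbx5 and Hp1bp3 fell by 0.84 and 0.49 on the log2 scale.

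**Figure D4:**
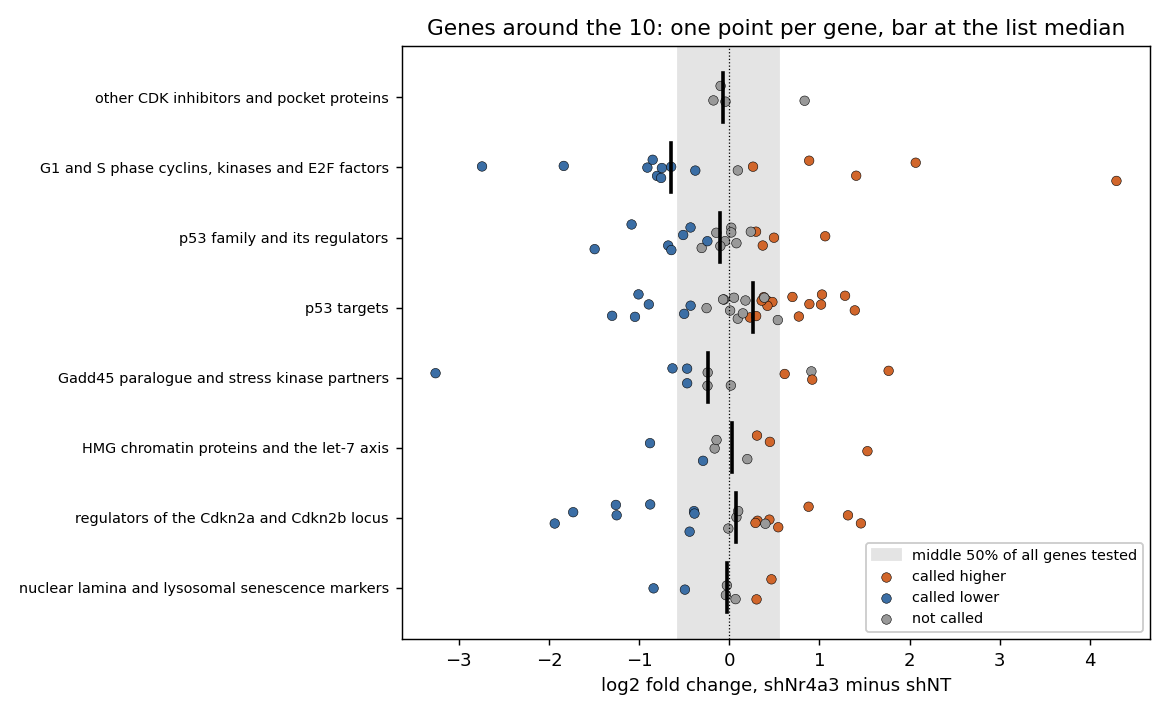
Log2 fold change (shNr4a3 minus shNT) of the tested genes in 8 lists around the 10 genes, 1 point per gene in orange (called higher), blue (called lower) or grey (not called), with a black bar at each list's median and a grey band over the middle 50% of all genes tested. The median lies at -0.64 for the G1 and S phase list and at 0.26 for the p53 targets, and the point at the far right, E2f2, had only 2 counts in shNT.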

How the data were processed

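Raw counts of reads, deposited by the authors with a length for each gene, were the starting point; the layout is that of featureCounts, per the file headers. Per the submitters' processing notes, the tools were Trimmomatic 0.36, SAMtools and featureCounts of Subread 1.5.1, with build mm10; for aligner, strand setting and annotation, no value was given in the sources used here. The labels name polyA RNA as the molecule but a ribosomal RNA depletion kit in the protocol. Genes outside the 16 chromosomes of the table, and those of the rest of chromosome 6, were not analysed here, so CPM and TPM are relative to the listed genes. Each of the 8 gene lists also named genes that were not in the deposited counts, and its results leave them out.

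The members and gene lists were chosen with earlier results of these data known. The fit used edgeR 4.0.16 (R 4.3.3): TMM scaling, filterByExpr, a quasi-likelihood F test on hairpin alone, and p-values adjusted after Benjamini-Hochberg over 10736 genes. The edgeR fit alone was tested on simulated counts, with far fewer changed genes than were called here. That test does not cover changes as broad as these. The SE is the log2 fold change divided by the square root of F. Libraries of a group differed beyond counting noise (chi-square per degree of freedom 10.63 for shNT and 22.14 for shNr4a3), and all 4 were kept. The interval of the E2f2 counts covers counting error only, and the floor used for Trp73 leaves out the counting error of shNT. Coordinates and exon overlaps come from GENCODE M21 (GRCm38, equal to mm10), which placed 98.1% of the symbols. Named genes were the 10 members, Nr4a3 and, per list, the 2 called genes with the largest rise and fall. Other genes were chosen after their values were seen. They were the delivered factors, Rb1, Rbl1, Cdkn3, Cdkn2aipnl, Cdk4, Pcna, E2f1, E2f3, E2f5, E2f6, E2f7, Gadd45g, Ccng1, Bmi1, Cbx7, Ezh2, Lin28a, Lin28b, Trp73, Cdk1, Ddit3, the single marker genes, overlapping or neighbouring genes and those in the closing section. No list was given a set test. A result withheld for evaluation is not reported here. Alternatives were DESeq2 size factors, no scaling factor, no filter, DESeq2 1.42.0, limma-voom (limma 3.58.1), a replicate block and leaving out each library.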

Additional observations from a re-analysis of the deposited data

How the results depend on the processing

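Each member was refitted under 10 alternatives. The direction and call of Cdkn2b, Cdkn2c, Trp53, Gadd45a, Gadd45b, Hmga1 and Hmga2 were the same in all 10. Cdkn1a and Mdm2 lost their calls without either shNT library and kept them in the other 8, so that the number of members called higher ranged from 3 to 5 over the fits that leave out 1 library, with 4 called lower in each. Cdkn2a was not called in any fit, and its log2 fold change was -0.00604 with library totals alone and -0.19 to 0.23 over the fits that leave out 1 library. Over all genes, those fits called 2680 to 3263 higher and 2565 to 3180 lower. DESeq2 called 2973 and 2892. Taken gene by gene, the median shift of the log2 fold change from the main fit was largest with library totals alone, at -0.02. With the replicate number as a block, 3404 genes were higher and 3255 lower, and the same 9 members were called. Same-numbered libraries did not deviate together (correlation 0.02 across genes), so the numbers were not taken as pairs. Of 160 counts for the gene lists, 151 stayed within 1.5 times, and of 280 refits of the genes named from the lists, 274 kept direction and call and 6 lost the call. With 2 libraries per group, the 95% interval of a log2 fold change spanned 0.34 for Mdm2 and 1.19 for Cdkn2a, the member with the fewest counts.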

Other observations

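Of 5 genes named for p53 that stood in no list and were chosen after their values were seen, 4 were called, in a table where 60.2% of genes were. Trp53i11, a p53-inducible gene, fell from 807 and 840 counts in shNT to 70 and 76 in shNr4a3 (log2 fold change -3.54 with an SE of 0.14, edgeR adjusted p = 1.48e-07), a larger change than that of any of the 10 genes described above. Trp53bp2, which encodes a p53-binding protein, rose from 1894 and 1926 to 3669 and 3743 counts (log2 fold change 0.91, edgeR adjusted p = 1.18e-05). Trp53i13 rose from 44 and 32 to 91 and 103 counts (log2 fold change 1.30, edgeR adjusted p = 0.00921). Trp53inp2, an autophagy gene, had a log2 fold change of -0.58 (edgeR adjusted p = 0.00312). Wrap53, which lies head to head with Trp53 on the opposite strand, had 80 and 68 counts in shNT and 76 and 81 in shNr4a3 and did not pass (edgeR adjusted p = 0.921).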
